A study of Caenorhabditis elegans with 4 samples.

Results

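PAX-1 is a transcription factor of the nematode Caenorhabditis elegans with a paired domain, a DNA-binding module that gives the Pax family its name and that lets these proteins hold specific sites on chromatin. The regions described here are the places on chromosome III that were listed for PAX-1 in both ChIP replicates. They are the 1749 regions of replicate 1 on III that share at least 1 bp with a replicate 2 region, out of 4705 regions of replicate 1 on III and 30000 in its whole list. They are called members below. Worm autosomes have a central portion rich in conserved genes, where meiotic crossovers are rare, and arms on both sides that recombine more and hold more repeats and more of the chromatin marked as silent. A map of bound regions along III is therefore read against these parts, and against chromosomes II, IV and V.

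The series holds 2 ChIP and 2 Input samples (total chromatin DNA), all from embryos of strain OP117 kept as a mixed population of males and hermaphrodites at 20 °C. All 4 carry the unc119(ed3) allele and the insertion wgIs117, a pax-1 transgene with TY1, EGFP (green fluorescent protein) and FLAG tags and an unc119 marker. It was introduced by particle bombardment and the strain was outcrossed 3 times. The map is therefore of a tagged protein from added gene copies, in whole embryos. ChIP (chromatin immunoprecipitation) used anti-GFP antibodies on chromatin fixed with 2% formaldehyde. The ChIP samples have 1 list of regions each, replicate 1 with 30000 and replicate 2 with 19190, and there is 1 combined list of 917; no Input list was used here. The lists hold positions, a score and a region number but no read counts, so read depth is unknown and no value below carries a spread between samples. Whether the replicates came from separate cultures is not stated. Coordinates are those of WormBase WS220, 1-based, and genes at the regions were not analysed here, since no WS220 annotation was used.

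Members ranked higher than the other regions of III in replicate 1 but reached down to the end of the list. That list ends at the round number 30000, and whether it was cut there is not stated; a cut would set how many weak regions could become members, and so the densities and the shares with a partner. Regions are numbered in each list, and number 1 is read as the highest because the lowest numbers carry the highest score. The median number of the members was 10253 (quartiles 3641 and 19298), against 16199 for the 2956 regions of III that had no partner in replicate 2. Of the members, 171 (9.78%) carried the ceiling score of the authors' replicate 1 list, 3.35, as did 35 of the regions without a partner. A partner was found for 85.6% of the III regions numbered 1 to 1000 (154 of 180, 95% Wilson interval 79.7% to 89.9%). The share was 56.5% for numbers 1001 to 5000, 35.4% for 5001 to 15000 and 28.5% for 15001 to 30000 (639 of 2240, interval 26.7% to 30.4%). On II, IV and V it was 85.7%, 91.5% and 82.6% for numbers 1 to 1000. For 15001 to 30000 it was 27.1%, 27.3% and 23.9% there, so the fall is not particular to III. For scale, 18.6% of III lies where the midpoint of a 410 bp region would count as overlapping a replicate 2 region. How much of each share is overlap by position alone was not tested.

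The 10 members with the lowest numbers in replicate 1 lay in all 3 equal parts of the chromosome. Number 5 of replicate 1, the highest on III, lay at 9353831 to 9354002, and its partner was number 8 of replicate 2. Number 9 lay at 3867456 to 3867632 and had number 55 as its partner. Both were also high in the combined list, at numbers 4 and 14. Number 16 lay at 8447004 to 8447170 with partner number 20, and number 20 lay at 6971972 to 6972137 with partner number 148. Number 27 lay at 12612335 to 12612744 with partner number 113. On the right part, number 29 at 10782938 to 10783347 and number 33 at 10759013 to 10759190 had partners 32 and 40 and lay within 1 bin of 500 kb. In the centre part, number 30 at 9053760 to 9054169 had partner number 13, number 34 at 8801878 to 8802287 had partner 361, and number 39 at 5678889 to 5679298 had partner 208. In these 10 the midpoints of the replicate regions lay between 5.5 and 96.0 bp apart, and their combined numbers ran from 4 to 66.

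The overlap that defines a member was usually long. Most members (1742) had the usual replicate 1 width of 410 bp, and the usual width in replicate 2 was 520 bp. The longest overlap of a member with a replicate 2 region had a median of 342 bp (quartiles 218 and 410), and 504 members lay wholly inside their partner. The midpoints of a member and its highest partner differed by a median of 149 bp (quartiles 55.0 and 271). At the edge of the rule, 13 members overlapped by 10 bp or less and 17 regions without a partner lay within 10 bp of one. The smallest overlap was 1 bp, in 1 member, and 1 region outside the rule touched a replicate 2 region with 0 bp between them.

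Members were not all separate sites. Of the 1740 replicate 2 regions that served as partners, 337 were shared by 2 or more members, and 590 members had a shared partner. In 254 cases consecutive members overlapped each other. Together the members covered 672 kb, or 4.87% of the listed length of III. The numbers in both lists rose together only loosely: over 1454 mutual best matches, pairs in which each region is the highest-ranked overlap of the other, the Spearman correlation of the numbers was 0.346. This is a description across regions of 2 libraries, which are not independent points.

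**Figure D1:**
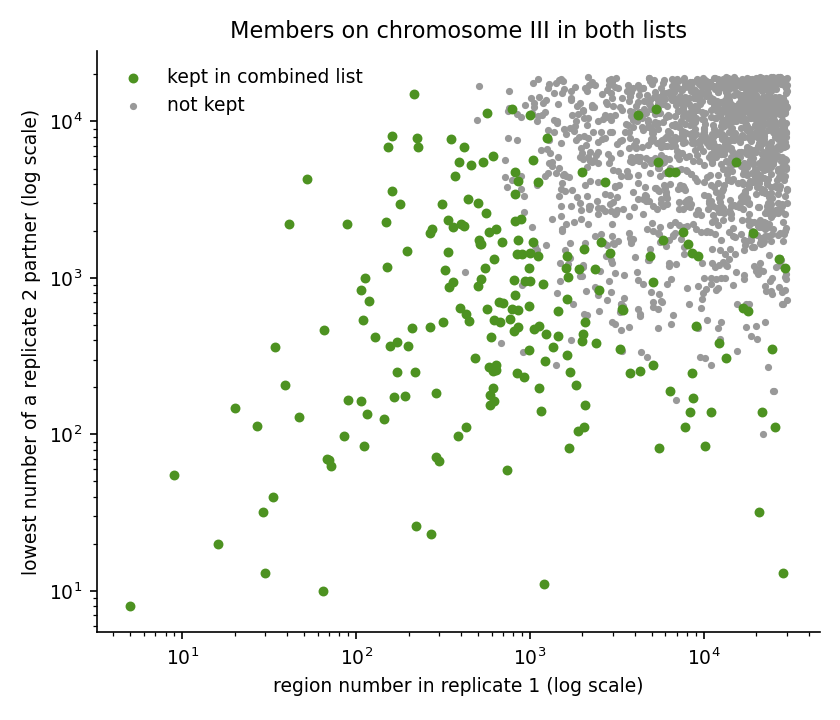
Each point is 1 of the 1749 members on chromosome III, with its region number in replicate 1 on the x axis and the lowest number among its replicate 2 partners on the y axis (both log scales, 1 is the highest). The 212 members that overlap a combined region (green) reach numbers as high as 29322 on the x axis, while the 1537 others (grey) begin at number 421.

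Chromosome III held more members per length than II, IV or V. There were 127 members per Mb on III (1749 over 13.8 Mb), against 99.5 on II, 107 on IV and 73.9 on V. The density on III was 1.28 times that on II (two-sided exact conditional binomial test, adjusted p = 1.9e-11 by Benjamini-Hochberg over 15 tests), 1.19 times that on IV (exact test, adjusted p = 1e-06) and 1.72 times that on V (exact test, adjusted p = 7.4e-53). Each replicate list alone had the same order for these pairs. Replicate 1 listed 341 regions per Mb on III, against 286, 306 and 244 on II, IV and V. Replicate 2 listed 226 against 181, 199 and 153. Members are taken from these lists, so the lists are no separate support for the order. Gene number did not follow this order. III has 192 protein-coding genes per Mb of listed length, by the RefSeq gene table of assembly WBcel235, against 226 on II, 188 on IV and 239 on V. Per 1000 protein-coding genes III held 662 members, against 441, 570 and 310. These tests take regions as independent, but members lie in runs, so the p-values may be too small. Counting members within 5000 bp of each other once, the density was 56.9 per Mb on III, against 48.7, 50.4 and 40.1. The exact tests then gave adjusted p = 0.00916, 0.032 and 2.96e-11 for II, IV and V (over 11 tests).

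The share of replicate 1 regions found again in replicate 2 was higher on III than on V, and the smaller differences from II and IV depended on the setting. It was 37.2% on III (1749 of 4705, interval 35.8% to 38.6%), where 34.0% of all nuclear replicate 1 regions had a partner. On II it was 34.8% (interval 33.4% to 36.2%), on IV 34.9% (33.7% to 36.2%) and on V 30.2% (29.0% to 31.5%). By Fisher's exact test (two-sided) III differed from V with adjusted p = 2.6e-12, and from II and IV with adjusted p = 0.0284 each. These tests too take regions as independent, but 590 members of III shared a partner, so the p-values may be too small. The call against II was lost in all 4 alternatives run (Fisher's exact test, adjusted p between 0.168 and 0.317). The call against IV was lost in 2 of the 4, among the upper 50% of replicate 1, with 45.0% on III against 42.9% on IV (Fisher's exact test, adjusted p = 0.183), and counted as replicate 2 regions (adjusted p = 0.0545, same exact test). The replicate 2 list also covered more of III, 10.9% of its length, against 8.78% of II, 9.64% of IV and 7.45% of V. After widening each replicate 2 region by 205 bp on both sides, which marks where a midpoint of a 410 bp region would count as an overlap, these were 18.6%, 15.1%, 16.5% and 12.8%. The part of this coverage in the differences was not tested.

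**Figure D2:**
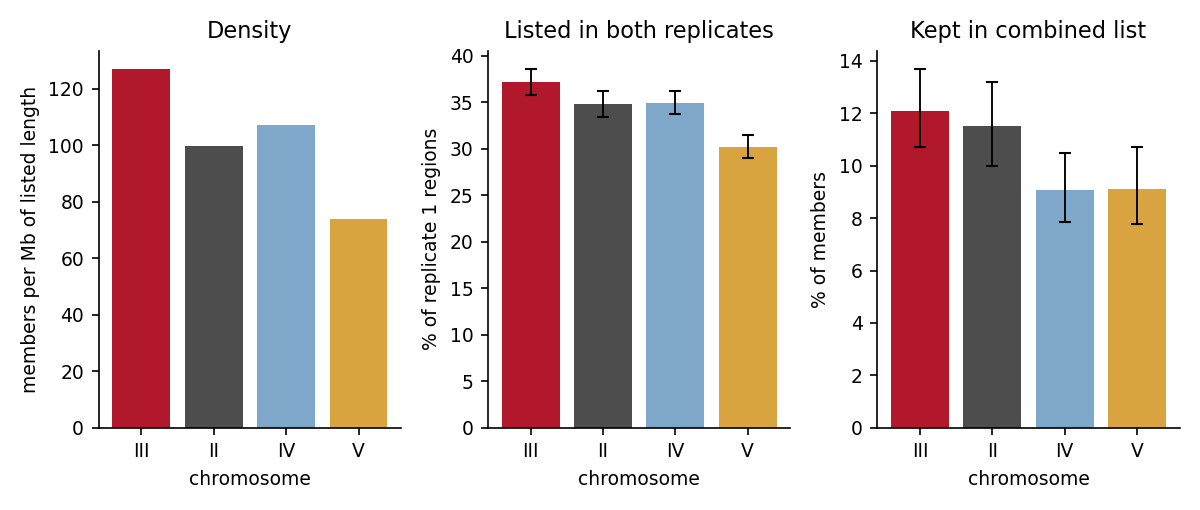
Members per Mb of listed length, share of replicate 1 regions with a replicate 2 partner, and share of members that overlap a combined region, for chromosomes III, II, IV and V; error bars on the shares are 95% Wilson intervals, which cover the counting of regions only, and the densities have none. III has the highest value in each panel, 127 per Mb, 37.2% and 12.1%. Its interval overlaps those of II and IV in the middle panel and that of II in the last panel.

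Along III, members were present in every bin of 500 kb, and relative to their mean the bins varied about as much as on IV. The 27 full bins held 40 to 87 members, with a median of 60.0 and a mean of 62.7 ± 13.5 (SD over bins). The most lay at 10500001 to 11000000 (87 members), 13000001 to 13500000 (86) and 3000001 to 3500000 (84). The fewest lay at 6500001 to 7000000 (40 members), 6000001 to 6500000 (41) and 7500001 to 8000000 (45). All 3 of the sparse bins were in the centre part and all 3 of the dense ones in the outer parts. The short last bin, 281319 bp at the right end, held 56 members or 199 per Mb. The SD over bins was 21.5% of the mean on III, against 29.4% on II, 23.1% on IV and 35.6% on V, where single bins held as few as 16, 25 and 8 members.

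Both replicate lists, from whose overlap the members are taken, gave this profile. The number of regions per full bin was 117 to 214 in replicate 1 and 75 to 149 in replicate 2, and the Spearman correlation of the counts over the 27 bins was 0.772, against 0.817 on II, 0.761 on IV and 0.760 on V. Neighbouring bins and the same worm genome underlie both lists, so these are descriptions without a p-value. Combined regions followed the members less closely: the correlation of members and combined regions over bins was 0.368 on III, against 0.706 on II, 0.432 on IV and 0.689 on V, and these differences were not tested. The bin at 2000001 to 2500000 had 68 members and 0 combined regions, and 9 of its members were numbered 5000 or lower. The bin at 5500001 to 6000000 had 59 members and 12 combined regions, the most of any full bin, and 15 of its members overlapped one. These last 2 bins were picked after their values were seen.

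**Figure D3:**
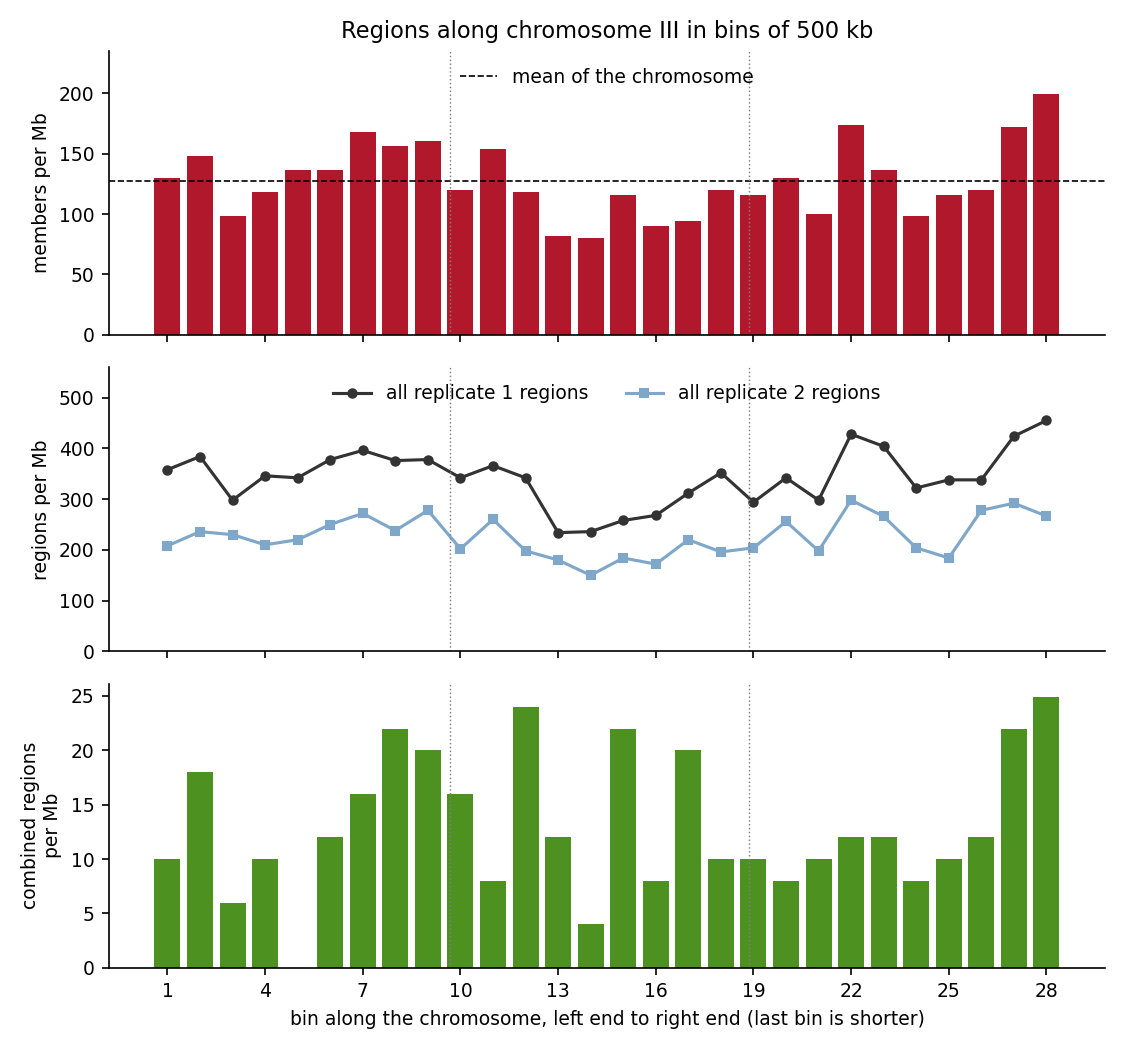
Members (top), all regions of each replicate list (middle) and combined regions (bottom) per Mb in bins of 500 kb along chromosome III from its left end; dotted lines bound the centre part and the dashed line is the mean of 127 members per Mb. Members dip to 80.0 and 82.0 per Mb in bins 14 and 13 inside the centre part, where combined regions number 2 and 6. Over the whole centre part combined regions lie at 13.5 per Mb, against 13.1 on the left part and 12.2 on the right.

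The centre of III held fewer members than its length, while combined regions were about as many in each part. The middle of 3 equal parts, at 4593774 to 9187546, held 491 members (28.1%, interval 26.0% to 30.2%) against 33.3% by length (exact binomial test, two-sided, adjusted p = 7e-06). Over all nuclear chromosomes 32.0% of members lay in the middle part. The centre of III had 107 members per Mb, against 140 in the left part (645 members) and 133 in the right part (613). Combined regions numbered 62 in the centre, against 60 in the left part and 56 in the right. Their share in the centre was 34.8% on III, below the 40.0% on II, 37.0% on IV and 40.8% on V. These differences in the combined list were not tested. The centre share of members on III was lower than the 34.9% on II (Fisher's exact test, two-sided, adjusted p = 6.7e-05) and the 35.0% on V (adjusted p = 5.2e-05, same exact test), and it was 29.7% on IV (exact test, adjusted p = 0.308). Each replicate list, from which members are taken, also had a low centre share. It was 29.2% of all replicate 1 regions and 28.6% of all replicate 2 regions, and is no separate support. The low centre share of members did not pass the test with members within 5000 bp counted once, at 31.6% (exact binomial test, adjusted p = 0.397). Nor did it pass in the upper 50% of replicate 1, at 31.2% (adjusted p = 0.183, same exact test). In those settings the calls against II and V ended only when neighbours were counted once, with adjusted p = 0.0737 and 0.154 (Fisher's exact test). Members of III were a median of 5030 bp apart in the centre, against 3899 bp in the left part and 3688 bp in the right. Counting neighbours within 5000 bp once therefore takes out more of the members in the outer parts by rule. The part of this in the lost calls was not tested. The tests of centre share, like those of density, take regions as independent. Over full 500 kb bins the variance of member counts was 2.91 times the mean on III, 4.27 on II, 2.80 on IV and 4.61 on V. The p-values may therefore be too small and the intervals too narrow.

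The centre share was lower at lower rank among the members, as it was in the whole replicate 1 list of III. Of the III members numbered 1 to 1000 in replicate 1, 37.0% (57 of 154, interval 29.8% to 44.9%) lay in the centre, and of those numbered 1001 to 5000 it was 33.5% (interval 29.0% to 38.3%). The share was 27.9% for numbers 5001 to 15000 (interval 24.4% to 31.8%) and 22.7% for 15001 to 30000 (145 of 639, interval 19.6% to 26.1%). The last 2 intervals lie below 33.3%. Among all replicate 1 regions of III, with or without a partner, the share on the same 4 steps was 39.4%, 36.0%, 28.9% and 26.6%, so the trend is one of the whole list and is not particular to the members. On the same 4 steps the share was 35.6%, 40.7%, 35.3% and 31.2% on II, then 34.9%, 33.1%, 29.2% and 27.5% on IV, and 41.3%, 38.8%, 34.9% and 32.4% on V. All 4 chromosomes had a lower centre share among the members of the last step than of the first. In the last step all replicate 1 regions had a centre share of 26.6% on III, against 29.0% on II, 29.9% on IV and 33.2% on V, the same order of III below the others as among the members. The numbering of replicate 2 gave a smaller step on III: 34.9% of its III regions numbered 1 to 1000 with a replicate 1 partner lay in the centre (65 of 186), and 26.2% of those numbered 10001 to 19190 (178 of 679). The classes of number were set after the data were seen and are given without a test.

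**Figure D4:**
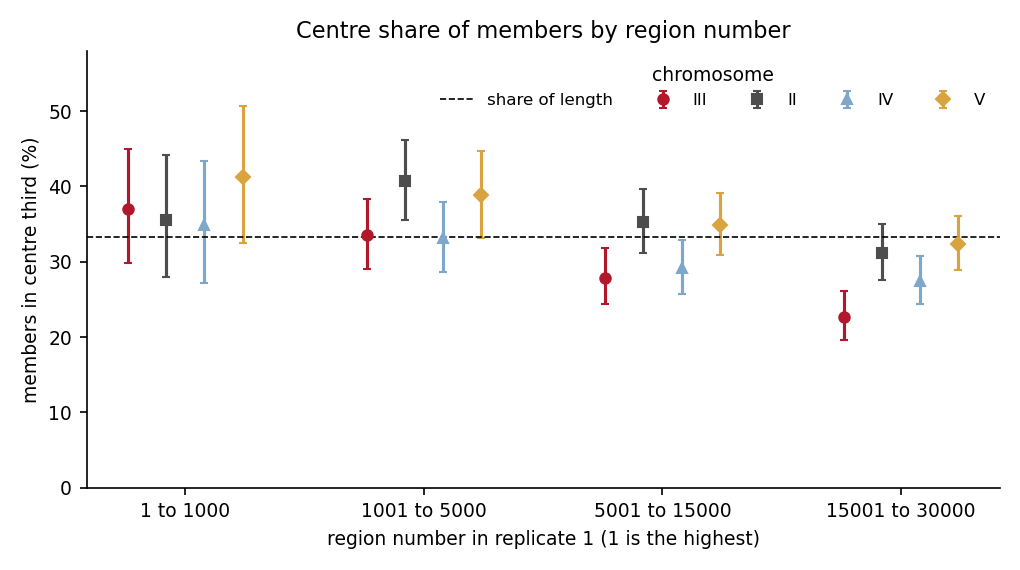
Share of members in the middle of 3 equal parts of the chromosome, by class of region number in replicate 1, for chromosomes III, II, IV and V; error bars are 95% Wilson intervals and the dashed line is the 33.3% share of length. On III the share is 37.0% for numbers 1 to 1000 and 22.7% for numbers 15001 to 30000.

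The share of replicate 1 regions with a partner did not pass the test between the centre and the outer parts of III. In the centre 35.7% of replicate 1 regions were members (491 of 1376, interval 33.2% to 38.3%), against 37.8% on both outer parts together (1258 of 3329, interval 36.2% to 39.4%; Fisher's exact test, two-sided, adjusted p = 0.213). Requiring an overlap of 50% of both regions turned the direction, at 25.2% in the centre and 25.1% on the outer parts (Fisher's exact test, adjusted p = 0.971). Replicate 2 covered 9.34% of the centre, against 11.5% of the left part and 11.8% of the right.

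Members on III were spaced closely. Midpoints of consecutive members were a median of 4014 bp apart on III (quartiles 1247 and 10181 bp, 1748 distances), against 4832 bp on II, 4592 bp on IV and 6095 bp on V. Distances up to 5000 bp made up 55.2% on III, against 51.1%, 52.9% and 45.8%. Those up to 1000 bp made up 21.8% on III, against 21.9%, 20.8% and 16.9%, so at short range III was no closer than II. The median was well below the mean distance of 7877 bp, at 0.509 of it, and this ratio was 0.481 on II, 0.492 on IV and 0.450 on V. Distances over 50 kb occurred 15 times on III, 42 times on II, 38 times on IV and 81 times on V. The longest distance on III was 83.4 kb, against 142 kb, 106 kb and 274 kb on II, IV and V. Spacing follows from density and was not tested on its own.

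The longest stretches of III without a member still held regions of single replicates. Between members ending at 5989932 and starting at 6072912 there were 13 regions of replicate 1 and 13 of replicate 2, with no overlap between the lists. The next, from 1288798 to 1371493, held 12 and 8, and the one from 8136861 to 8214635 held 10 and 5. No combined region lay in any of the 3.

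At short range, distances fell into separate classes. The smallest distance between members was 199 bp, and 250 distances (14.3%) were at most 350 bp, which is less than the usual width of a region. Only 32 lay between 351 and 600 bp, and 62 between 601 and 850 bp. Regions of the usual width at these short distances overlap their neighbour. How the peak caller splits a broad enriched stretch is not given in the sources used here, and its part in this class was not tested.

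**Figure D5:**
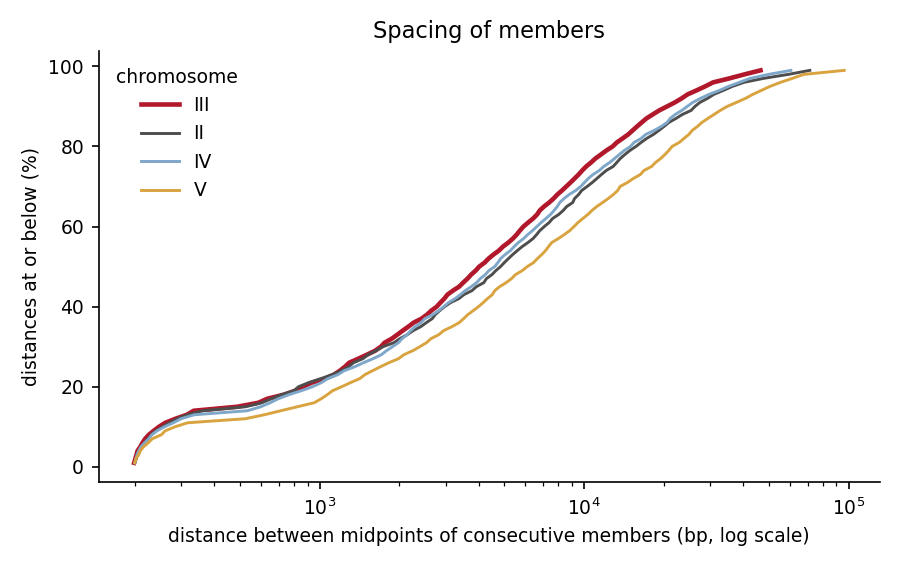
Cumulative share of the distances between midpoints of consecutive members (x axis, log scale, percentiles 1 to 99) for chromosomes III, II, IV and V. The curve of III lies to the left of that of V over most of the range, with medians of 4014 and 6095 bp, and all curves have a flat step between the short class and the rest.

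Runs, in which each member lies within 5000 bp of the next, numbered 784 on III, against 744 on II, 882 on IV and 839 on V. The median distance on III, 4014 bp, is below this limit, so runs follow in part from density. Run sizes are given for III only. Of the 784 runs, 363 (46.3%) were single members, 75 had 5 or more and 6 had 10 or more, and 489 members (28.0%) were in runs of 5 or more. The longest, at 5414447 to 5427033, held 15 members in 12.6 kb. Its highest member was number 106, at 5424319 to 5424728, with partner number 836, and only this member and the overlapping number 2484 lay on a combined region, number 135. The other 13 members of the run had numbers from 1966 to 27879. The run at 3300320 to 3324312 had 12 members in 24.0 kb and the run at 7723622 to 7738159 had 11 in 14.5 kb. Neither held a combined region, and their highest members were numbers 1282 and 2225.

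Few members were kept in the combined list. On III 212 members overlapped a combined region (12.1%, interval 10.7% to 13.7%), where 10.7% of all nuclear members did. The share was 11.5% on II (175 of 1520, Fisher's exact test, two-sided, adjusted p = 0.625), 9.09% on IV (170 of 1870, exact test, adjusted p = 0.00643) and 9.12% on V (141 of 1546, exact test, adjusted p = 0.00943). The call against V ended among the upper 50% of replicate 1, with 18.1% on III against 14.5% on V (Fisher's exact test, adjusted p = 0.0555). The chromosomes also differed in rank: members numbered 1 to 1000 made up 8.81% of members on III, 8.68% on II, 6.90% on IV and 7.05% on V. The part of rank in the kept shares was not tested. The combined list draws on the same libraries and is no independent evidence. Within III the share kept was 14.5% in the centre (71 of 491, interval 11.6% to 17.8%), against 11.2% on the outer parts (141 of 1258, interval 9.58% to 13.1%; Fisher's exact test, adjusted p = 0.0907). Counted as replicate 2 regions with a replicate 1 partner, it was 16.1% in the centre, against 11.9% on the outer parts, and passed the test (Fisher's exact test, adjusted p = 0.0329). It did not pass with an overlap of 50% of both regions, at 17.6% against 15.2% (Fisher's exact test, adjusted p = 0.421). Nor did it pass with midpoints within 200 bp, in the upper 50% of replicate 1 or with neighbours counted once (adjusted p = 0.328, 0.5 and 0.154, same exact test).

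Being kept went with rank in both lists. The source named for the regions includes IDR, which compares ranks between replicates. How the lists were combined is not stated, so this link may be built into the combined list. Kept members had a median number of 691 in replicate 1 and 628 for the highest partner in replicate 2, and members not kept had 12268 and 7763. Of the members numbered 1 to 1000 in replicate 1, 85.7% were kept on III (132 of 154, interval 79.3% to 90.4%). The share was 75.0% on II (interval 67.0% to 81.6%), 79.8% on IV (72.1% to 85.9%) and 80.7% on V (72.3% to 87.0%). Each of these intervals overlaps that of III. For numbers 1001 to 5000 the shares were 11.9% on III, against 15.3%, 9.64% and 11.0%. On III 83 members were among the first 1000 of both lists, and 80 of these were kept. The highest members not kept were number 421 at 9456034 to 9456443, with partner 1097, number 496 at 9051115 to 9051524, with partner 10211, and number 506 at 6374965 to 6375374, with partner 16916. These 3 were picked after their values were seen. Midpoints of member and partner were a median of 64.0 bp apart in kept members and 164 bp in the others.

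Several kept members lay beside a higher one on the same combined region. Of the 178 combined regions on III, 171 overlapped a member, and 46 overlapped 2 or more (at most 3). The highest member on a combined region was numbered 1 to 1000 for 136 of them, 1001 to 5000 for 32 and over 5000 for 3. All 11 kept members numbered over 15000 shared their combined region with a member of lower number. One of them was the weakest kept member, number 29322, at 8443920 to 8444329. Of the kept members 46.7% (99 of 212, interval 40.1% to 53.4%) had another member within 1000 bp, against 38.3% of those not kept (589 of 1537, interval 35.9% to 40.8%). The same pair of shares was 48.6% and 38.8% on II, 50.6% and 37.6% on IV and 49.6% and 29.5% on V. At the usual widths, 410 bp for members and 496 bp for combined regions, members on the same combined region lie within 1000 bp of each other. Such members count as kept and as near by the rule, so these contrasts are partly set by it.

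Few regions of III without a partner were kept: 9 of 2956, against 5 of 2846 on II, 2 of 3482 on IV and 5 of 3568 on V. Of the 26 on III numbered 1 to 1000, 6 were kept. The highest such region of replicate 1, number 125 at 4237617 to 4238026, lay 233 bp from the nearest replicate 2 region. Number 170, at 9092208 to 9092617, lay 668 bp from one, and number 188, at 2528577 to 2528986, lay 2956 bp from one. All 3 overlapped a combined region, at combined numbers 630, 500 and 512. Of the 7 combined regions of III with no member, 6 overlapped replicate 1 alone, and the other, number 688 at 558796 to 559291, overlapped regions of both replicates that did not overlap each other.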

How the data were processed

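Per the file headers, the authors deposited called regions on WormBase WS220, whose source column names SPP, which calls enriched regions, and IDR, which compares ranks between replicates. Each region has a score that the authors deposited, of unstated scale and with a ceiling. No source used here gives the aligner, versions, thresholds, use of Input or combination of replicates. Chromosome lengths are the last base in any of the 3 lists. Overlaps of at least 1 bp, densities and Wilson intervals were computed with Python 3.11.15 and scipy 1.17.1, and the functions were tested on simulated lists. Fisher's exact and exact binomial tests were two-sided, adjusted over 15 tests by Benjamini-Hochberg, with a threshold of 0.05. With neighbours counted once or 1 replicate list left out, tests of the share with a partner dropped out and the adjustment was over 11 tests. The tests compare regions of these libraries, since 1 list per replicate gives no spread between samples. All of them take regions as independent, so p-values may be too small and intervals too narrow. The named regions are the 10 highest members, the 3 highest regions without a partner, the 3 densest and sparsest bins, the 3 longest distances and runs. Members and tests were chosen with earlier results of these data known. Alternatives changed the overlap, the part of the list used, the centre and bin size, the counting of neighbours, the list that members are counted in and the expected density. No sequence of WS220 was used.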

Additional observations from a re-analysis of the deposited data

How the results depend on the processing

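No paired analysis was possible because the tests compare regions within the lists and no model was fitted across samples. The 19 results were computed under 107 alternatives, of which 85 gave the same direction and call or, for bins and spacing, a value within 1.5 times. Values below are ratios of III to the other chromosome, of centre to length or of centre to outer parts. Density on III stayed above that of II, IV and V in every alternative run. The share with a partner no longer passed against II at 1.05 (overlap of 50% of both regions, midpoints within 200 bp, and upper 50% of replicate 1) and 1.04 (counted as replicate 2 regions), nor against IV at 1.05 in the last 2 of these settings. The share kept against V did not pass in the upper 50% (1.25). Centre shares did not pass with neighbours within 5000 bp counted once (0.862 against II, 0.891 against V, 0.949 against length) and, against length, in the upper 50% (0.935). Against IV the centre share, which never passed, turned to 1.02 (both stricter overlaps), 1.0009 (upper 50%) and 1.01 (neighbours once, and centre as the middle 50%). The centre's share with a partner turned to 1.003 (overlap of 50%), 1.01 (midpoints) and 1.02 (middle 50%). The share kept in the centre passed at 1.30 (middle 50%) and 1.35 (replicate 2 regions), and was 1.19 to 1.34 with 1 replicate list alone, passing without replicate 1. It did not pass at 1.16 (overlap of 50%), 1.18 (midpoints), 1.13 (upper 50%) or 1.30 (neighbours once). The cause of these changes was not tested. Membership needs both lists, so the share with a partner has no value with 1 replicate left out. Read depth is unknown, so what it limits among weak regions could not be bounded.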
